A study of Bombus terrestris audax with 20 samples.

Results

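Larvae of the buff-tailed bumble bee, Bombus terrestris audax, become queens or workers according to how they are reared, and a pair of enzymes of lipid and steroid metabolism are described here over the larval stages of both castes. The first is estradiol 17-beta-dehydrogenase 2 (LOC100645241), a short-chain dehydrogenase named after the vertebrate enzyme, and the second is fatty acid synthase-like (LOC100652317). They are 2 of 14817 features in the deposited mRNA-seq table. Both were chosen by their mid-instar values, which were known to be far higher in queen- than in worker-destined larvae, so that difference is given as a description with no test.

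Each library was made from whole female larvae of 1 colony, pooled by instar and caste. Queen-destined larvae came from 4 colonies whose queen had been removed, and worker-destined larvae came from 3 colonies that kept their queen. The 17 libraries comprised 3 of early-instar queen-destined larvae (EQ), 3 of early-instar worker-destined larvae (EW), 3 of mid-instar queen-destined larvae (MQ), 2 of mid-instar worker-destined larvae (MW), 3 of late-instar queen-destined larvae (LQ) and 3 of late-instar worker-destined larvae (LW). Libraries MQ3, LQ3 and MW1 were excluded by the authors and were not analysed here. MQ3 and LQ3 were left out for low read numbers, and MW1 because it resembled its replicates poorly. The 2 MW libraries thus remained after a choice by likeness, so their spread may understate that between colonies. No colony gave libraries of both castes, so caste and the presence of the colony queen cannot be told apart, nor can caste and colony. In RNA from whole larvae, fewer cells of a type and less RNA per cell cannot be told apart either. Values are normalised abundances, which are corrected for transcript length and quantile-normalised. The table holds no read counts, so the errors given are the spread between libraries and no counting error was computed. The transcript of hexamerin, a storage protein that the larval fat body of insects makes in bulk, lay between 1114 and 11398 in all 17 libraries. It was not even between castes in the mid instar. It was lowest in the MW libraries, at 1201 and 1114, against 7762, 6385 and 11398 in the MQ libraries. Whether the share of fat body RNA differed between the castes was not tested.

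Insects cannot make sterols and build ecdysteroids, the moulting hormones, from sterols of the diet. In Drosophila, short-chain dehydrogenases, cytochromes P450 and other enzymes encoded by the Halloween genes carry out this synthesis in the prothoracic gland, and pulses of ecdysteroid time the moults. Fatty acid synthase joins malonyl units to an acetyl primer to make saturated fatty acids, which larval fat body stores as triglyceride and other cells use for membranes and cuticular lipids. Growing larvae of holometabolous insects lay down such stores before they stop feeding.

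The 17-beta-dehydrogenase feature (NC_015766.1_8097203_8103084) spans 5882 bp on the minus strand of NC_015766.1 in the Bter_1.0 assembly, from 8097203 to 8103084. Its best reciprocal match in Drosophila was shroud, a Halloween gene that encodes a short-chain dehydrogenase of ecdysteroid synthesis. The fatty acid synthase-like feature (NW_003565702.1_4661_4969) spans only 309 bp on the plus strand of the unplaced scaffold NW_003565702.1, from 4661 to 4969, and is the only feature of that scaffold in the table. Its best match in Drosophila was Fatty acid synthase 1. A fatty acid synthase is a very large enzyme, so 309 bp can hold only a piece of such a gene, and reads that align at several places were included in the values. How far reads from related sequences enter the fatty acid synthase-like value was not tested.

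In mid-instar larvae, the 17-beta-dehydrogenase was at 579, 533 and 628 in MQ libraries, against 187 and 167 in MW libraries. The lowest MQ library lay 2.85-fold above the highest MW library. The means were 580.0 ± 47.6 (SD, n = 3) in MQ larvae and 177 ± 14.4 (SD, n = 2) in MW larvae, a log2 difference of 1.61 on the scale of log2(abundance + 20), which is used for all log2 values given here. These are the values that chose the gene, and its log2 difference ranked 65 among the 14817 features.

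Fatty acid synthase-like was at 1002, 1296 and 1453 in MQ libraries, against 325 and 309 in MW libraries. Every MQ library was more than 3-fold above the higher MW library, with a ratio of 3.09 between the nearest libraries. The means were 1250.2 ± 228.5 (SD, n = 3) in MQ larvae and 317 ± 10.8 (SD, n = 2) in MW larvae, a log2 difference of 1.90 that ranked 50 among all features. The range of MQ libraries lay wholly above that of MW libraries for 25.1% of all features and wholly below it for 17.4%, shares from which nothing is read, since this difference chose both genes.

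**Figure D1:**
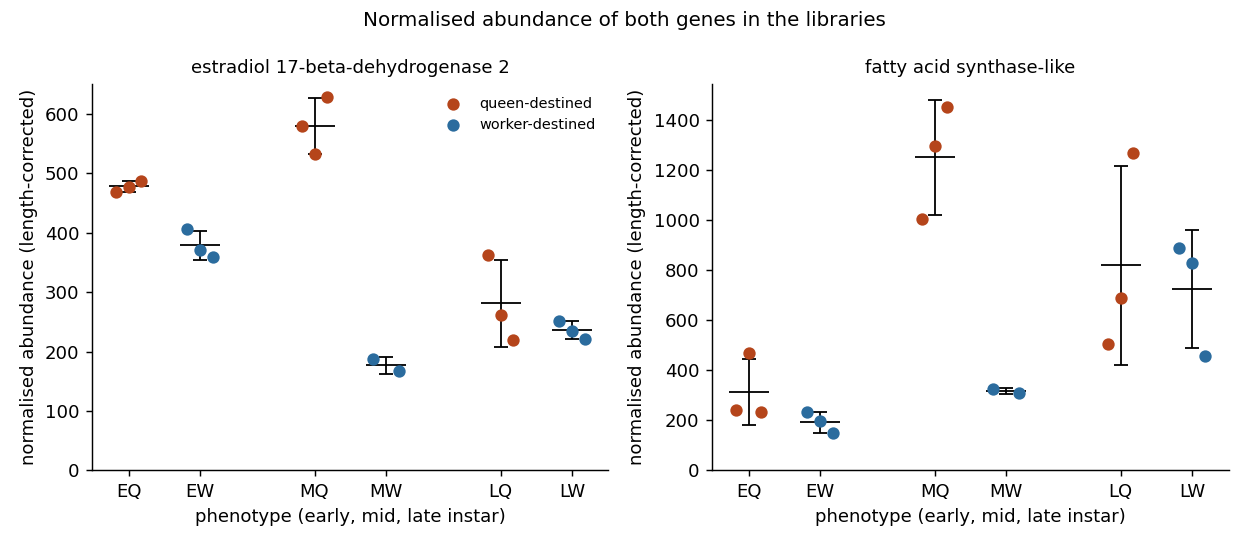
Normalised abundance (y axis, length-corrected) of estradiol 17-beta-dehydrogenase 2 (left) and fatty acid synthase-like (right) in early, mid and late-instar larvae (x axis). Points are libraries, queen-destined in red and worker-destined in blue, and the black bars are the mean and SD. Castes stand apart in mid-instar larvae, where MQ averaged 580.0 against 177 in MW for the dehydrogenase and 1250.2 against 317 for fatty acid synthase-like, and overlap in late-instar larvae.

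In early-instar larvae the castes lay much closer. The 17-beta-dehydrogenase was at 469, 478 and 488 in EQ libraries, against 407, 371 and 360 in EW libraries. The EQ libraries were tightly grouped, with a coefficient of variation of 2.02%, and all of them lay above the EW libraries, with a ratio of means of 1.26. Fatty acid synthase-like was at 241, 467 and 234 in EQ libraries, against 231, 196 and 147 in EW libraries. EQ2 stood well above the rest, and EQ3, at 234, exceeded EW1, at 231, by a margin of 1.01-fold. The EQ range lay wholly above the EW range for 5.51% of all features and below it for 9.02%. The list from which product names could be read is ordered by the early caste difference, so nothing is read from the presence of both genes in that share.

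In late-instar larvae neither gene differed between the castes beyond the spread of the libraries. The 17-beta-dehydrogenase was at 363, 262 and 219 in LQ libraries, against 252, 235 and 222 in LW libraries. The LQ libraries ran from below to above the LW libraries, and LQ1 alone stood clearly higher. The log2 difference was 0.21 (SE 0.14, 95% confidence interval −0.09 to 0.50, limma adjusted p = 0.404).

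Fatty acid synthase-like was at 504, 688 and 1266 in LQ libraries, against 890, 827 and 456 in LW libraries. Both castes spread widely and their ranges overlapped, although LQ4 lay above every LW library and LW3 below every LQ library, with coefficients of variation of 48.6% in LQ and 32.4% in LW. The log2 difference was 0.13 (SE 0.34, 95% confidence interval −0.61 to 0.86, limma adjusted p = 0.864), and its sign turned when LQ4 was left out, to −0.23, or LW3, to −0.17. Neither gene was thus among the 4.55% of all features that passed the limma test between castes in late-instar larvae, of which 3.21% were higher and 1.34% lower in LQ. Nor was either among the features whose late ranges did not overlap, 13.3% with LQ higher and 9.66% with LW higher. Within LQ the order of the libraries was opposite for the genes, since LQ1 was highest for the dehydrogenase and lowest for fatty acid synthase-like, and LQ4 was the reverse. In LW both genes were highest in LW1 and lowest in LW3.

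Between early and late instars the genes moved in opposite directions, and both changes exceeded the spread between libraries. Averaged over the castes, the 17-beta-dehydrogenase fell by 0.70 on the log2 scale in late-instar relative to early-instar larvae (SE 0.10, 95% confidence interval −0.90 to −0.49, limma adjusted p = 3.2e-05). Late-instar libraries, at 219 to 363 in LQ and 222 to 252 in LW, lay below the early-instar libraries of their own caste, at 469 to 488 in EQ and 360 to 407 in EW. Fatty acid synthase-like rose by 1.54 (SE 0.24, 95% confidence interval 1.02 to 2.06, limma adjusted p = 9.98e-05). Late-instar libraries, at 504 to 1266 in LQ and 456 to 890 in LW, again did not overlap the early-instar libraries of their caste, at 234 to 467 in EQ and 147 to 231 in EW. Changes of this kind were common in the table: 33.0% of all features were higher and 29.3% lower in late-instar larvae by the same test, 62.3% in all, with a median change of 0.01 over all features.

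The path between these end points differed by caste, and it is described with no test, because it runs through the mid-instar libraries. In queen-destined larvae the 17-beta-dehydrogenase had a mean of 478 in EQ, 580.0 in MQ and 281 in LQ. In worker-destined larvae it had a mean of 379 in EW, 177 in MW and 236 in LW. Queen-destined larvae thus had their highest values, and worker-destined larvae their lowest, in the mid instar. All MQ libraries above all EQ libraries together with all MW libraries below all EW libraries occurred in 1.48% of all features, and the reverse in 0.682%. The first share includes the dehydrogenase by way of the mid-instar values that chose it. Taken singly, these steps were common: all MQ libraries were above all EQ libraries for 23.1% of features, all MW below all EW for 20.3%, all LQ below all MQ for 23.1% and all LW above all MW for 26.4%.

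Fatty acid synthase-like followed a different course. Its mean was 314 in EQ, 1250.2 in MQ and 819 in LQ, with 1 of 9 pairs of LQ and MQ libraries having the LQ library higher. In worker-destined larvae the mean was 191 in EW, 317 in MW and 724 in LW, and each stage lay wholly above the one before. All MW libraries were above all EW libraries for 17.9% of all features. In queen-destined larvae the mid-instar mean was therefore the highest, while in worker-destined larvae the late-instar mean was.

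Ordered by mean level, the 17-beta-dehydrogenase ran from MQ through EQ, EW, LQ and LW to MW, and only the neighbours EW and LQ, and LQ and LW, overlapped in range. Fatty acid synthase-like ran from MQ through LQ, LW, MW and EQ to EW, with overlapping ranges between MQ and LQ, LQ and LW, and MW and EQ. The 17-beta-dehydrogenase was above 59.2% to 86.8% of the features of a library, lowest in MW and highest in MQ. Fatty acid synthase-like was above 55.9% to 93.9%, lowest in EW and highest in MQ.

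Most colonies were sampled at several stages, and libraries of a colony can be followed. The 17-beta-dehydrogenase was 1.24 times as high in MQ1 as in EQ1 and 1.12 times as high in MQ2 as in EQ2, each pair being from 1 queenless colony. In queenright colonies it was 0.505 times as high in MW2 as in EW2 and 0.463 times as high in MW3 as in EW3. Successive stages of each caste did not overlap in range, so any pairing of these libraries would give the direction of the group means. Ratios into and out of the mid instar also use the libraries that chose the gene. From mid to late instar the ratio was 0.626, 0.491 and 0.348 in the queenless colonies of LQ1, LQ2 and LQ4, and 1.26 and 1.33 in the queenright colonies of LW2 and LW3. From early to late instar it was below 1 in all 5 colonies sampled at both stages, between 0.547 and 0.774. This count also follows from the ranges, since early and late libraries of each caste did not overlap.

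For fatty acid synthase-like, MQ1 was 4.16 times EQ1 and MQ2 was 2.77 times EQ2, while MW2 was 1.66 times EW2 and MW3 was 2.10 times EW3. All 4 colonies had more of the transcript in the mid than in the early instar, which follows from the ranges, since early and mid libraries of each caste did not overlap. The ratios of both queenless colonies exceeded those of both queenright ones. Nothing is read from this contrast, since it uses the mid-instar values that chose the gene. From mid to late instar the ratio was 0.502, 0.531 and 0.872 in the queenless colonies of LQ1, LQ2 and LQ4, against 2.55 and 1.47 in the queenright colonies of LW2 and LW3. From early to late instar it was above 1 in all 5 colonies, at 2.09 and 1.47 in the queenless ones and between 3.09 and 4.22 in the queenright ones. That count again follows from the ranges of early and late libraries, which did not overlap within a caste.

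**Figure D2:**
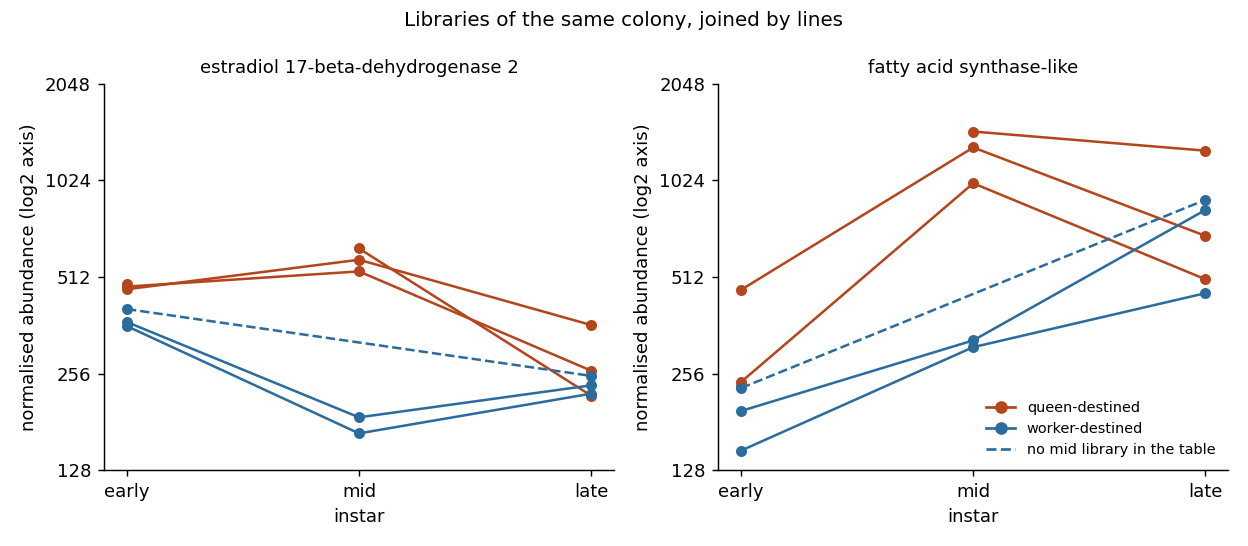
Normalised abundance (y axis, log2 axis) of estradiol 17-beta-dehydrogenase 2 (left) and fatty acid synthase-like (right) by instar (x axis), with libraries of the same colony joined by lines, queen-destined in red and worker-destined in blue. A dashed line joins the early and late libraries of the colony whose mid library was not analysed. The dehydrogenase was lower in the late than in the early instar in all 5 colonies with both stages, and fatty acid synthase-like was higher in all 5. Both counts follow from the ranges, since early and late libraries of each caste did not overlap.

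The length-corrected values of the genes are set side by side within each library, with the limits that the fatty acid synthase-like feature is a short piece and that reads aligning at several places are included, so the ratio is one of these features and not of whole transcripts. Fatty acid synthase-like was below the 17-beta-dehydrogenase in all 6 early-instar libraries and above it in all 5 mid-instar and all 6 late-instar libraries. The mean ratio of their abundances was 0.657 in EQ, 2.16 in MQ and 3.27 in LQ among queen-destined larvae, and 0.502 in EW, 1.80 in MW and 3.03 in LW among worker-destined larvae. The mean ratio thus increased with stage in both castes, although the range of the LQ libraries, 1.39 to 5.79, took in that of the MQ libraries, 1.73 to 2.43. Over the 17 libraries, which share stages, castes and colonies, Pearson's r between the genes was 0.09 on the log2 scale.

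Product names could be read for 451 features beside uncharacterised ones, and 20 of these belonged to lists of steroid, lipid and nutrient genes. None of the 20 passed the limma test between castes in late-instar larvae, where 4.55% of all features did. Their median late caste difference was 0.12, against 0.02 over all features. Between early and late instars 6 rose, 5 fell and 9 did not pass, with a median of −0.01, beside 33.0% higher and 29.3% lower among all features. These counts are near the background. In the mid instar the MQ range lay wholly above the MW range for 9 of the 20, and the MW range above the MQ range for 0. Among all 451 named features these shares were 43.2% and 2.44%, so nothing is read from the 9 of the 20. The readable names come from a list ordered by higher expression in EQ than in EW. Whether this order accounts for the shares among named features was not tested.

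Among genes of steroid synthesis and related dehydrogenases, estradiol 17-beta-dehydrogenase 11 (LOC100652203), whose vertebrate namesake is a dehydrogenase of lipid droplets, was also higher in MQ than in MW and lower in late than in early instars. It averaged 319 ± 58.2 in MQ (SD, n = 3) and 106 ± 3.18 in MW (SD, n = 2), and it fell by 0.80 between the early and late instars (SE 0.23, limma adjusted p = 0.00838). In worker-destined larvae its mean was 104 in EW, 106 in MW and 57.0 in LW, without the low mid-instar mean of the 17-beta-dehydrogenase 2. Cytochrome P450 307a1-like (LOC100642619), related to the Drosophila Halloween gene spook, averaged 48.8 ± 12.2 in MQ and 29.8 ± 3.05 in MW, and its early to late change was −0.15 (SE 0.10, limma adjusted p = 0.21). Retinol dehydrogenase 12-like had overlapping castes in the mid instar and an early to late change of −0.19 (limma adjusted p = 0.15).

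Among 5 genes listed as nuclear receptors or as factors of the ecdysone response, 3 rose and 1 fell between early and late instars. Of all features, 62.3% passed that comparison, so the count is not read as a result about the list. Steroid hormone receptor ERR1, whose Drosophila counterpart drives genes of carbohydrate metabolism in larvae, averaged 105 in LQ and 80.9 in LW. Against 29.4 in EQ and 25.5 in EW, it rose by 1.24 (limma adjusted p = 3.51e-08). These early-instar means were near the added offset of 20, which understates its change. Orphan steroid hormone receptor 2 rose by 0.41 (limma adjusted p = 6.86e-05), and the broad-complex core protein, a transcription factor of the larval to pupal transition, rose by 0.25 (limma adjusted p = 0.00749). The probable nuclear hormone receptor HR38 fell by 0.44 (limma adjusted p = 0.00133). Its phenotype means lay between 7.78 and 23.2, near or under the added offset of 20, which understates its change.

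Of 3 genes of lipid modification, breakdown and transport, 2 fell between early and late instars, as 29.3% of all features did, and so few genes give no result about the list. Putative fatty acyl-CoA reductase CG8306, of a family that reduces fatty acids to fatty alcohols, averaged 172 ± 25.3 in LQ and 142 ± 76.6 in LW, against 525 ± 74.0 in EQ and 359 ± 68.6 in EW (SD, n = 3 each), and fell by 1.41 (limma adjusted p = 5.64e-05). Phospholipase A1, a phospholipid-cleaving enzyme, averaged 12.2 ± 2.86 in LQ and 51.0 ± 75.6 in LW, against 287 ± 43.7 in EQ and 197 ± 31.3 in EW (SD, n = 3 each), and fell by 2.70 (limma adjusted p = 2.37e-05). Its LW libraries differed widely among themselves. Oxysterol-binding protein 1, a lipid transfer protein, had a change of 0.11 (limma adjusted p = 0.133).

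Of 4 sphingolipid and phosphoinositide enzymes, phosphatidylinositol 4-kinase alpha rose by 0.66 (limma adjusted p = 5.58e-06) and phosphatidylinositol 3-kinase regulatory subunit gamma rose by 0.96 (limma adjusted p = 2.12e-06), while the other two did not pass. Of 5 genes of insulin signalling and sugar uptake, facilitated trehalose transporter Tret1-like (LOC100643557), of a family that carries the blood sugar of insects into cells, rose by 1.61 (limma adjusted p = 1.05e-06). An insulin-like peptide receptor (LOC100645413) fell by 0.12 (limma adjusted p = 0.0493), close to the threshold. Its phenotype means, 3.91 to 8.31, were well under the added offset of 20. The other 3 did not pass.

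**Figure D3:**
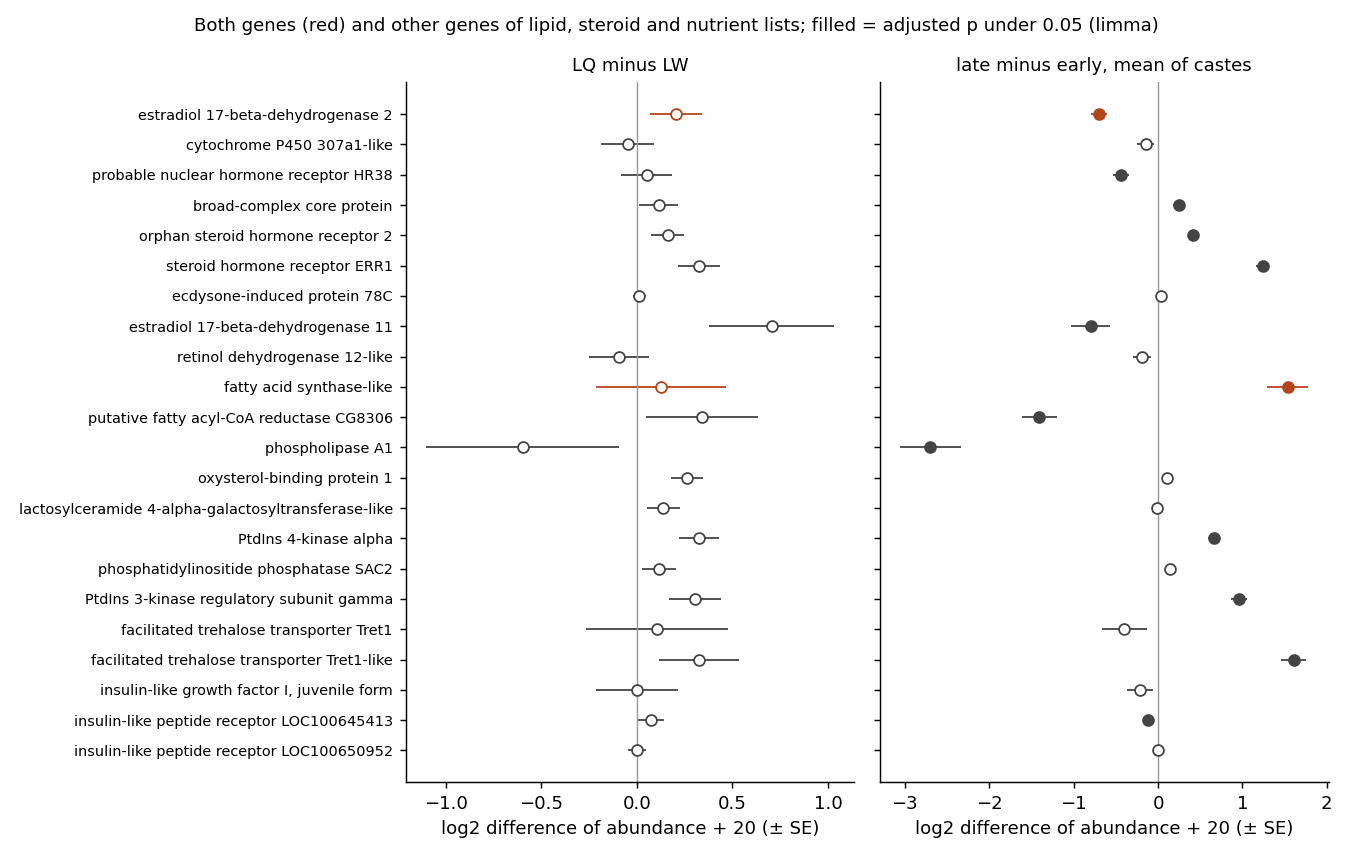
Log2 differences of abundance + 20 with their standard errors (x axis) for both genes, in red, and 20 other steroid, lipid and nutrient genes, in grey (y axis), between LQ and LW (left) and between late and early instars over both castes (right). Filled points passed the limma test after adjustment over all 14817 features: none on the left, and on the right 6 grey points to the right of 0 and 5 to the left.

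By Pearson correlation of log2 values over the 17 libraries, the named genes whose pattern was most like that of the 17-beta-dehydrogenase were golgin-84, a Golgi protein (r = 0.93), kruppel homolog 1, a transcription factor induced by juvenile hormone in insects (r = 0.92), sodium- and chloride-dependent glycine transporter 1-like (r = 0.91), MOXD1 homolog 1 (r = 0.88) and probable cytochrome P450 303a1 (r = 0.86). MQ had the highest phenotype mean for 4 of these 5, the exception being the glycine transporter, which was highest in EQ. Kruppel homolog 1 averaged 636 in MQ and 202 in MW. For fatty acid synthase-like they were transcriptional regulator Myc, a driver of cell growth (r = 0.95), cAMP-dependent protein kinase type II regulatory subunit (r = 0.91), orphan steroid hormone receptor 2 (r = 0.91), importin subunit beta-1, a nuclear import factor (r = 0.89), and zinc finger protein 91-like (r = 0.89). Of all 14817 features, 6 reached an r of 0.9 with the 17-beta-dehydrogenase and 8 with fatty acid synthase-like. These libraries share stages, castes and colonies, and the correlations are descriptions. They include the mid-instar libraries that chose both genes. The readable names also come from a list ordered by higher expression in EQ than in EW. Likeness to named genes that are high in MQ is therefore not read as a result. Phenotype means of Myc, 4.49 to 25.1, and of the glycine transporter, 5.75 to 26.6, lay near or under the added offset of 20. So did those of cytochrome P450 303a1 in MW, LQ and LW, at 10.0, 4.88 and 8.55.

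**Figure D4:**
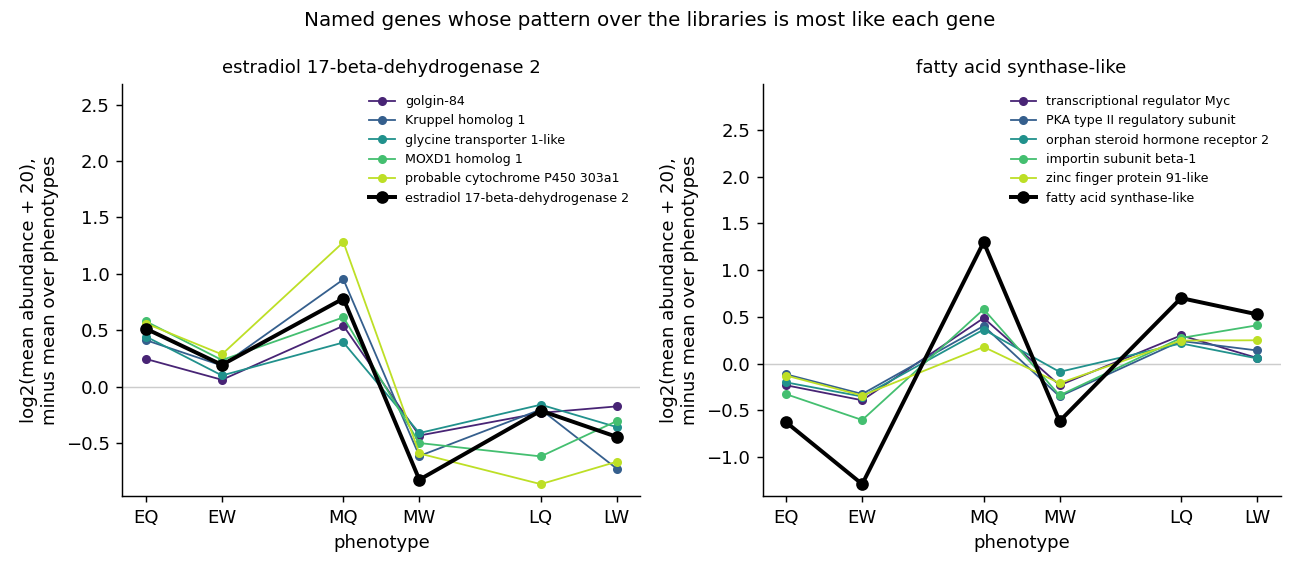
Phenotype means as log2(abundance + 20), less each gene's mean over the phenotypes (y axis), for EQ, EW, MQ, MW, LQ and LW (x axis). Estradiol 17-beta-dehydrogenase 2 (left) and fatty acid synthase-like (right) are in black and the 5 named genes most like each are coloured, with r from 0.86 to 0.93 on the left and 0.89 to 0.95 on the right.

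No other feature overlapped the 17-beta-dehydrogenase locus. An unnamed feature from 8095121 to 8096557 on NC_015766.1, 646 bp away, was far more abundant, with a mean of 28993 in MQ and 13910 in MW. It was 45436 in EQ and 33613 in EW, so that it was not highest in MQ as the dehydrogenase was, and its r with the dehydrogenase was 0.39. The nearest feature on the other side, from 8103379 to 8105137 and 295 bp away had a mean of 450.0 in MQ and 378 in MW, and was highest in the late instar, at 697 in LQ and 559 in LW, with an r of −0.29.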

How the data were processed

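mRNA was sequenced from 17 libraries of pooled whole larvae. The authors resampled all libraries to 1 size, aligned reads to Bter_1.0 in PatMaN, allowing 1 mismatch and counting reads that align at several places, removed weak features, corrected counts for length and quantile-normalised them. The deposited values are this normalised abundance, a signal and not a count, and library medians run from 117.811 to 117.851. The study's methods give the size to which libraries were resampled, but the table holds no read counts per feature, so no counting interval was computed and count models were not used. Nothing in the sources used here gives the authors' strand setting.

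In R 4.3.3, limma 3.58.1 was fitted with an intensity trend to log2(abundance + 20) of all 14817 features, with 6 phenotype means (11 residual degrees of freedom, 2.35 added by the prior). Adjustment of p followed Benjamini and Hochberg across the whole table, and 0.05 was the threshold. The tests were the late caste difference and the late minus early change averaged over castes. All phenotypes share 1 spread per feature. Caste differences in the mid and early instars, and changes into or out of the mid instar, were described only.

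The members and gene lists were chosen with earlier results of these data known. The named genes are both members, every readable product name that matched a list, the 3 nearest features on each side and the 5 named features most correlated with each member. Product names and Drosophila matches come from the study's supplement. Of 14817 features, 597 had a readable product name, uncharacterised ones included, and 542 of their symbols were in the RefSeq table, whose assembly is another build and gave no coordinates.

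The replicate numbers mark colonies within a caste. Deviations of the early and late libraries of a colony correlated at 0.41 and 0.44 in queenless colonies and at 0.11, 0.04 and −0.24 in queenright ones. For 13 pairs of the same caste from different colonies, r ran from −0.56 to 0.31, a range that holds the queenright values. Numbers in different castes are different colonies, so they pair no libraries there. Alternatives were the offset, filters, normalisation, colony and replicate blocks, library weights and leaving out each library. A library-set term, for 9 libraries with high levels of 1 unannotated transcript against the other 8, was added after seeing the data.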

Additional observations from a re-analysis of the deposited data

Results flagged for a closer look

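For estradiol 17-beta-dehydrogenase 2, the change from early to mid instar had opposite signs in the castes, with all MQ libraries above all EQ libraries and all MW libraries below all EW libraries. The log2 change was 0.27 in queen-destined larvae and −1.02 in worker-destined larvae, a difference of 1.28. From mid to late instar the signs were turned round, at −1.02 in queen-destined larvae and 0.38 in worker-destined larvae, a difference of −1.40. Neither difference was tested, since both use the mid-instar libraries on which the gene was chosen. They share those libraries, so they are not separate observations.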

How the results depend on the processing

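The late minus early changes kept their direction and passed the threshold under all 13 alternatives, between −0.74 and −0.61 for estradiol 17-beta-dehydrogenase 2 (adjusted p 4.86e-06 to 0.00468) and between 1.28 and 1.61 for fatty acid synthase-like (adjusted p 2.70e-05 to 0.00122). Leaving out each library gave −0.79 to −0.62 and 1.36 to 1.69. The late caste difference passed under none of 12 alternatives for either gene. It was 0.19 to 0.26 for the dehydrogenase, and 0.02 without LQ1 to 0.36 without LQ4. For fatty acid synthase-like it turned to −0.27 with the replicate block (adjusted p 0.592) and −0.054 with library weights (adjusted p 0.928), and ran from −0.23 without LQ4 to 0.41 without LQ1. The replicate block changed no call of either gene. It gave a shared term to libraries of the same replicate number in both castes. Those libraries are from different colonies, so its late caste value is not a paired comparison, and nothing is read from its change of sign. Counts of features depended more on the choices. The 475 higher and 199 lower in LQ than LW became 204 and 121 among features with a mean of at least 100, 1399 and 1281 with library weights, and 20 and 7 with late libraries alone. The lower count was 315 with the library set as a term, which was added after seeing the data. Leaving out a library gave 214 to 544 higher and 65 to 240 lower, both lowest without LQ1. Between late and early instars, 4888 higher and 4337 lower became 2671 and 2696 with a mean of at least 100, and 2398 were lower among annotated features alone. Fewer features were tested under both filters. For the other counts the cause was not tested. With 2 or 3 libraries per phenotype, and wide spread in LQ, the late caste intervals limit what a lack of difference can show.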
